A study of Mus musculus with 6 samples.

Results

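The genes described here are the 7 complex I genes carried on the mouse mitochondrial genome, mt-Nd1, mt-Nd2, mt-Nd3, mt-Nd4, mt-Nd4l, mt-Nd5 and mt-Nd6. They were chosen by name, as the rows whose Ensembl identifier maps to these symbols, and all 7 were found among the 21006 genes with a value. RNA-Seq was performed on the prefrontal cortex of 6 male C57BL/6 mice of wild type genotype, 18 months old by their age label although the sample titles carry 17M, with 1 library from each animal. The PND group (postoperative neurocognitive disorder model, n = 3) breathed 1.5% isoflurane for 30 min, then underwent an exploratory laparotomy of another 30 min, still under isoflurane, which is the opening and inspection of the abdomen, and had lidocaine cream and povidone iodine put on the wound afterwards. The CON group (n = 3) received no anesthesia and no operation. Animals of both groups went through a Barnes maze, a spatial memory test, and in both the brain was taken under deep isoflurane after perfusion with saline. There was no group with anesthesia alone or with a sham operation, so anesthesia, surgery and the wound treatment cannot be told apart in any difference between PND and CON.

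Complex I, NADH dehydrogenase, is the large entry enzyme of the respiratory chain. It takes electrons from NADH, passes them to ubiquinone and pumps protons out of the mitochondrial matrix. Its peripheral arm is built wholly from nuclear genes, whereas the core of its membrane arm is encoded in the mitochondria by the genes described here. In rodents as in other mammals the mitochondrial genome is transcribed into long RNAs from each strand, which are cut into the single messages mostly at the tRNAs that lie between them, and mt-Nd6 is the protein gene whose message comes from the opposite strand to all the others. Neurons depend heavily on this respiration, and mitochondrial messages are among the most abundant RNAs of the brain.

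The starts of the 7 messages are shown because they mark where each gene lies and how unlike the mt-Nd6 message is to the others. Sequences and positions are those of GENCODE M21 on GRCm38, read 5′ to 3′ on the strand of the gene, with the start codon in capitals. Each gene is a single exon in that annotation.
mt-Nd1, chrM:2751-3707, plus strand, 957 bases, start: GTGttctttattaatatcctaacactcctc
mt-Nd2, chrM:3914-4951, plus strand, 1038 bases, start: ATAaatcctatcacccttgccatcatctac
mt-Nd3, chrM:9459-9806, plus strand, 348 bases, start: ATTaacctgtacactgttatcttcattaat
mt-Nd4l, chrM:9877-10173, plus strand, 297 bases, start: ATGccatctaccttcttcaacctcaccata
mt-Nd4, chrM:10167-11544, plus strand, 1378 bases, start: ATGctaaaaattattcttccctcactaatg
mt-Nd5, chrM:11742-13565, plus strand, 1824 bases, start: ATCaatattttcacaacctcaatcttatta
mt-Nd6, chrM:13552-14070, minus strand, 519 bases, start: ATGaataattatatttttgttttaagttca
The start codons ATA, ATT, ATC and GTG are read as methionine starts in mitochondria. In the mt-Nd6 message G and T together made up 71.9% of the bases, against 35.4% to 43.7% in the other 6 messages, and G alone made up 28.1% against at most 11.6%. The GC content, in contrast, ran from 33.0% in mt-Nd3 to 41.1% in mt-Nd4l. The message of mt-Nd4 was 1 base longer than a whole number of codons and ended in a lone T, a stop codon that is completed only by the poly(A) tail.

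Neighbouring genes of this set overlap at 2 places. The end of mt-Nd4l and the start of mt-Nd4 share 7 bases on the same strand, and the pair is known to be carried on 1 bicistronic message. The whole mt-Nd4l gene and the start of mt-Nd4 are shown, with the shared bases in capitals.
mt-Nd4l, chrM:9877-10173, plus strand: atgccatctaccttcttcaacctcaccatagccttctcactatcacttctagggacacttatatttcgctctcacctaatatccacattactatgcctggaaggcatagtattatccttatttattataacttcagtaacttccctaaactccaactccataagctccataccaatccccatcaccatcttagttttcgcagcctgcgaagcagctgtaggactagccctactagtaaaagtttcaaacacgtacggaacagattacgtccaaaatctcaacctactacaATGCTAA
mt-Nd4, chrM:10167-10206, plus strand: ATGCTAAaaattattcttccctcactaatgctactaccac
The ends of mt-Nd5 and mt-Nd6 share 14 bases on opposite strands, and the shared bases are again in capitals.
mt-Nd5, chrM:13526-13565, plus strand: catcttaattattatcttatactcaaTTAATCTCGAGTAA
mt-Nd6, chrM:13552-13591, minus strand: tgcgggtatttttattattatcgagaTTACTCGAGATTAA
Whether strand was used in counting was not stated. Fragments from mt-Nd6 and from the other strand over the same bases, or from the bicistronic pair, therefore could not be told apart here.

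The values are FPKM, fragments for each kilobase of exon after scaling to the depth of the library, and are thus levels per length. Whether messages as short as mt-Nd4l and mt-Nd3 yield fragments in proportion to length was not tested. Nuclear copies, described below, also took part of the fragments of mt-Nd3, mt-Nd4 and mt-Nd4l. The order between genes is given with these limits. By the mean of the 6 animals the order was mt-Nd4 (8661 FPKM), mt-Nd4l (6531 FPKM), mt-Nd1 (3777 FPKM), mt-Nd2 (3591 FPKM), mt-Nd5 (2667 FPKM), mt-Nd6 (2546 FPKM) and mt-Nd3 (555 FPKM). Among all 21006 genes these were ranks 3, 5, 10, 11, 12, 13 and 19. The 36 nuclear genes for subunits of the same enzyme that were tested had mean levels between 0.628 and 48.4 FPKM with a median of 5.38 FPKM, so that even mt-Nd3 lay above the highest of them.

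Some neighbours in this order held their places in every animal and others did not. mt-Nd4 lay above mt-Nd4l in 6 of 6 animals, by 1.13 to 1.56 times, although both are read from 1 message. The part of their unlike lengths and of their nuclear copies in this ratio was not tested. mt-Nd4l lay above mt-Nd1 in 6 of 6 animals, by 1.56 to 1.98 times. mt-Nd1 and mt-Nd2 did not differ beyond their spread, with mt-Nd1 higher in 4 of 6 animals and a ratio between 0.986 and 1.16. mt-Nd2 lay above mt-Nd5 in 6 of 6 animals, by 1.19 to 1.54 times, and mt-Nd6 lay above mt-Nd3 in 6 of 6, by 3.79 to 5.92 times. mt-Nd5 and mt-Nd6 exchanged places between the groups, with mt-Nd5 higher in 3 of 3 PND animals and in 0 of 3 CON animals. That ratio is described further on.

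**Figure D1:**
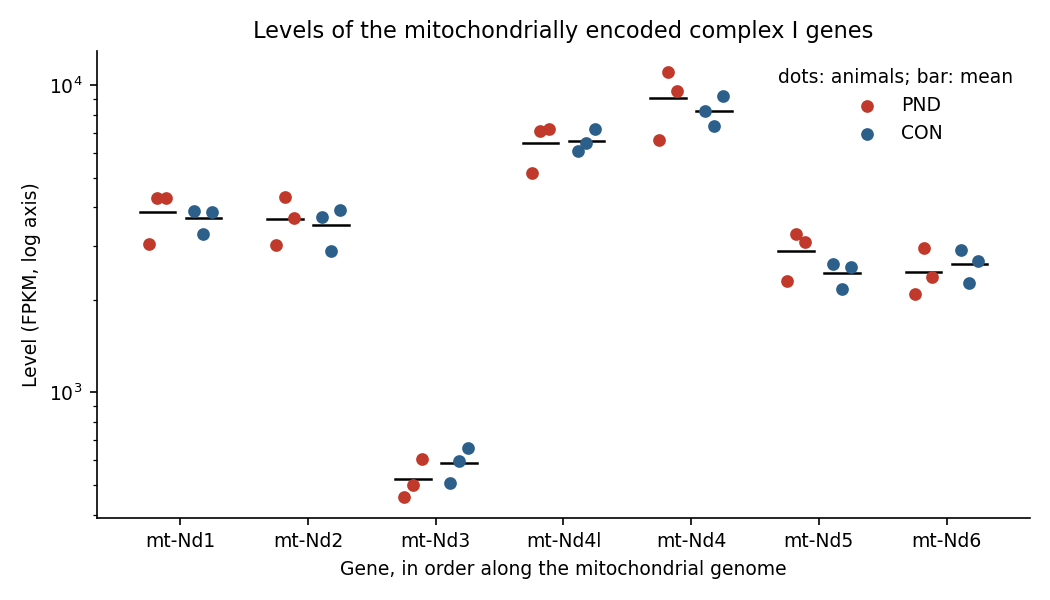
Level in FPKM (log axis) of the 7 mitochondrial complex I genes in order along the mitochondrial genome, with 1 dot for each animal (PND red, CON blue) and a bar at the mean of each group. mt-Nd3 sits at 458 to 657 FPKM, below all other genes, and for each gene the red and the blue dots overlap.

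None of the 7 genes passed the study's cut-off between PND and CON, which asks for an absolute log2 fold change above 1 and an unadjusted p below 0.05. By limma 0 of 7 passed it, 0 of 7 had an unadjusted p below 0.05, 0 of 7 had an adjusted p below 0.05 and in 0 of 7 did the animals of 1 group all lie above those of the other. A second test on recovered fragment counts, limma-voom, also gave 0 of 7 for the cut-off, for the unadjusted p and for the adjusted p. Over all 18185 genes tested the cut-off was passed by 1.33% (0.841% higher and 0.484% lower in PND). An unadjusted p below 0.05 was given to 3.13% and an adjusted p below 0.05 to 0.011%, while the groups did not overlap for 7.66% (3.78% higher and 3.88% lower in PND). The median log2 fold change of the 7 genes was 0.06, against 0.01 over all genes tested, but it was -0.095 under quantile normalization, -0.096 after rescaling to the 13 mitochondrial protein genes and 0.12 with a GC correction. The fold change was positive for 4 and negative for 3, although under quantile normalization those of mt-Nd1 and mt-Nd2 turned negative. No 95% interval of the 7 reached further from 0 than 0.62 on the log2 scale, so changes in the mean of 1.53-fold or more upward, or to 0.697-fold or less, lay outside all of them. Bulk tissue was measured, in which fewer cells of a type and less RNA per cell cannot be told apart.

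mt-Nd1, mt-Nd3, mt-Nd4l and mt-Nd6 encode the part of the membrane arm that joins the peripheral arm, where ubiquinone binds. For mt-Nd1, whose product forms much of the ubiquinone pocket, PND animals 1, 2 and 3 had 3046, 4277 and 4280 FPKM and CON animals 1, 2 and 3 had 3899, 3287 and 3874 FPKM. The highest and the lowest animals were both in PND, and the groups overlapped. The level was 3868 ± 711 FPKM (SD, n = 3) in PND against 3687 ± 346 FPKM (SD, n = 3) in CON, which gave a log2 fold change of 0.06 (SE 0.17, 95% interval -0.34 to 0.46, limma unadjusted p = 0.753). The adjusted p of limma was 0.9999 for this and for each of the other 6 genes.

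mt-Nd3, whose product carries the loop that shifts between the active and the resting form of the enzyme, had 458, 498 and 608 FPKM in PND and 508, 600 and 657 FPKM in CON. The lowest pair of animals was in PND and the highest was in CON, with an overlap between. The level was 521 ± 77.7 FPKM in PND against 588 ± 75.0 FPKM in CON, giving a log2 fold change of -0.18 (SE 0.15, 95% interval -0.52 to 0.17, limma unadjusted p = 0.268). On the linear scale this was 0.885-fold, with an interval from 0.697 to 1.12. It was the most negative value of the 7 in the main fit. With a GC correction it was -0.078, and under quantile normalization it was -0.095 against -0.34 for mt-Nd6. mt-Nd6 was also the lower of these 2 genes without PND replicate 2 or without CON replicate 2.

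mt-Nd4l had 5156, 7061 and 7204 FPKM in PND and 6093, 6495 and 7179 FPKM in CON. PND animal 1 lay below all the rest, and the other PND animals lay among or just above the CON animals. The log2 fold change was -0.04 (SE 0.17, 95% interval -0.44 to 0.36, limma unadjusted p = 0.827) at 6474 ± 1144 FPKM in PND and 6589 ± 549 FPKM in CON. For mt-Nd6, the gene of the opposite strand, PND animals had 2086.5, 2948 and 2374 FPKM and CON animals had 2913, 2275 and 2680 FPKM. Here PND held both the lowest and the highest animal. The means were 2469 ± 439 and 2623 ± 323 FPKM, with a log2 fold change of -0.09 (SE 0.17, 95% interval -0.48 to 0.29, limma unadjusted p = 0.587). Under quantile normalization the mt-Nd6 value was -0.34 (limma unadjusted p = 0.0052), which still did not pass the cut-off on fold. On that scale CON animals 1, 2 and 3 had identical values, as did PND animals 2 and 3, so this p rests on tied values.

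mt-Nd2, mt-Nd4 and mt-Nd5 encode the antiporter-like subunits that form the proton-pumping stretch of the membrane arm. mt-Nd2 had 3007, 4322 and 3681 FPKM in PND and 3723, 2885 and 3929 FPKM in CON. PND animal 2 was highest and CON animal 2 was lowest, and the groups overlapped. The means were 3670 ± 657 FPKM and 3512 ± 553 FPKM, with a log2 fold change of 0.06 (SE 0.18, 95% interval -0.37 to 0.49, limma unadjusted p = 0.751).

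mt-Nd4, the most abundant of the 7, had 6603, 11029.9 and 9554 FPKM in PND and 8213, 7337 and 9230 FPKM in CON. PND animal 1 was lowest and PND animals 2 and 3 were the highest pair, so the CON animals lay inside the range of PND. The means were 9062 ± 2254 FPKM and 8260 ± 947 FPKM, with a log2 fold change of 0.11 (SE 0.21, 95% interval -0.39 to 0.61, limma unadjusted p = 0.628).

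mt-Nd5, the subunit at the far end of the membrane arm, had the most positive value. PND animals had 2296, 3286 and 3083 FPKM and CON animals had 2614, 2174 and 2551 FPKM. PND animals 2 and 3 lay above all CON animals and PND animal 1 lay between CON animals 2 and 3. The means were 2888 ± 523 FPKM and 2446 ± 238 FPKM, with a log2 fold change of 0.23 (SE 0.17, 95% interval -0.16 to 0.62, limma unadjusted p = 0.212), or 1.17-fold. Without PND replicate 1 the log2 fold change was 0.38 (limma unadjusted p = 0.0326), below the cut-off on fold.

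**Figure D2:**
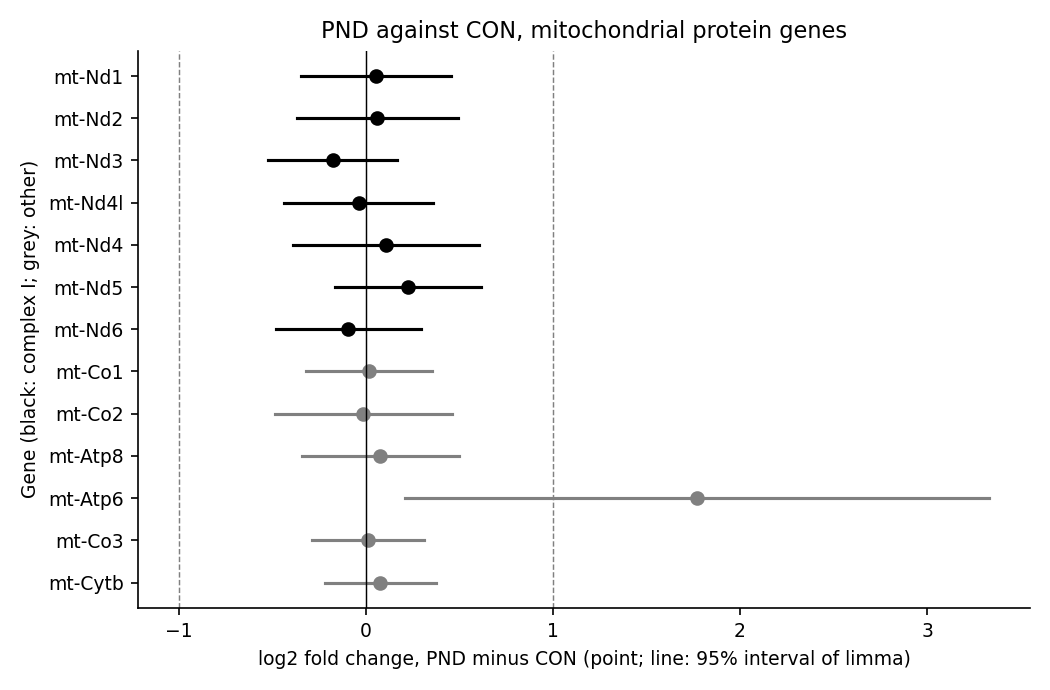
Log2 fold change of PND against CON (point) with the 95% interval of limma (line) for the 7 complex I genes (black) and the other 6 protein genes of the mitochondrial genome (grey), in genome order, with dashed lines at the study's fold limit. All 7 black intervals cross 0 and none reaches a dashed line, whereas mt-Atp6 lies at 1.77. Under quantile normalization the points of mt-Nd1 and mt-Nd2 fall below 0.

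Counting error was small beside the differences between animals. The values could be turned back into whole fragments, from 1325 to 1986 for mt-Nd3 up to 80501 to 123591 for mt-Nd4. At the lowest animal the counting error was 2.75% for mt-Nd3 and 0.352% for mt-Nd4. Over the 6 animals the coefficient of variation of the FPKM was between 12.3% and 18.6%. The width of the intervals above was thus set mainly by the spread between libraries, in which animal and library preparation cannot be told apart.

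Much of that spread was common to the 7 genes. On the log2(FPKM + 0.1) scale the mean deviation of the 7 from their gene means was -0.28, 0.19 and 0.12 in PND animals 1, 2 and 3 and 0.01, -0.14 and 0.11 in CON animals 1, 2 and 3. PND animal 1 was the lowest animal for mt-Nd1, mt-Nd3, mt-Nd4, mt-Nd4l and mt-Nd6, and CON animal 2 was the lowest for mt-Nd2 and mt-Nd5. PND animal 2 was the highest for mt-Nd2, mt-Nd4, mt-Nd5 and mt-Nd6. The SD of this common deviation within groups was 0.20. After a correction for GC content it was 0.22, with deviations of -0.26, 0.10 and 0.30 in PND and -0.21, 0.02 and 0.05 in CON, so that CON animal 1 joined PND animal 1 at the low end. Under quantile normalization, where a value follows from its rank in the library, the SD was 0.060, with deviations of 0.025, -0.13 and -0.061 in PND and 0.010, 0.076 and 0.076 in CON, and PND animal 2, not PND animal 1, was lowest. With all 7 genes at ranks 3 to 19 by mean level, ranks can move little, and several animals had identical values on that scale, so that a common shift is hardly visible there.

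**Figure D3:**
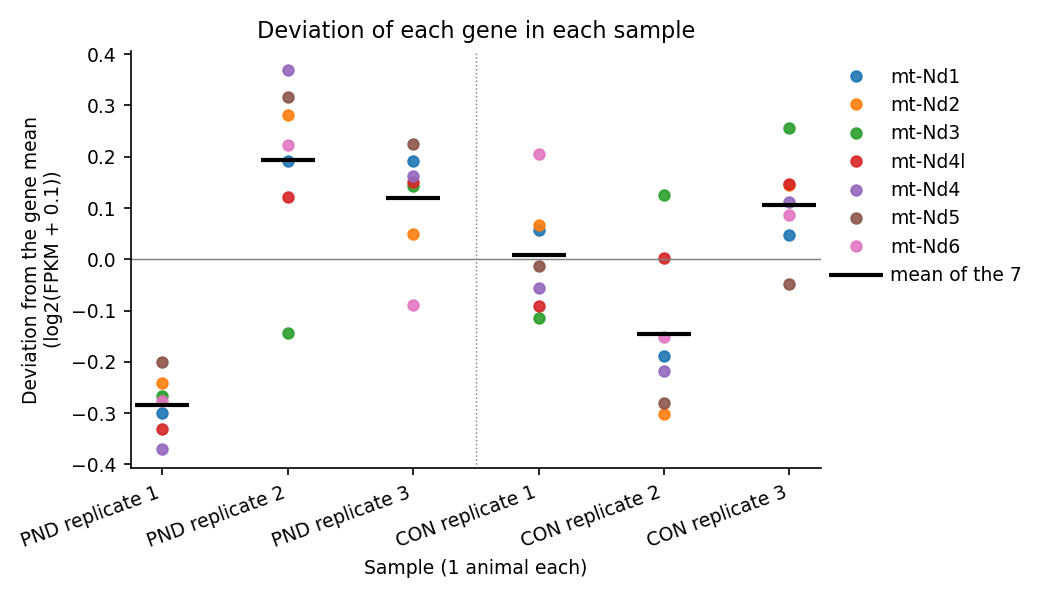
Deviation of each of the 7 genes from its own mean over the 6 animals, in log2(FPKM + 0.1), for each animal, with 1 coloured dot for each gene and a black bar at the mean of the 7. All 7 dots lie below 0 in PND replicate 1, where the bar is at -0.28, and 6 of 7 lie above 0 in PND replicate 2, where the green dot of mt-Nd3 does not.

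By the deposited values mt-Nd3 followed the other genes least, except for mt-Nd4l (Pearson r = 0.73). Over the 6 animals the Pearson r between log2 values of 2 of the genes had a median of 0.73, from -0.02 to 0.94. The median over the 6 pairs with mt-Nd3 was 0.19, against 0.87 for mt-Nd4, 0.85 for mt-Nd2 and mt-Nd1, 0.73 for mt-Nd5, 0.69 for mt-Nd4l and 0.67 for mt-Nd6. These values describe 6 libraries, and the points share depth and library in each. The correlations are those of the deposited scale and were not computed after the GC correction, which can change them. mt-Nd3 took 1.49% of the summed FPKM of the 7 in PND animal 2 and 2.39% in CON animal 2, whereas mt-Nd1 kept between 12.8% and 13.9% in all animals.

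Genes outside the mitochondrial genome whose log2 levels ran most closely with the mean of the 7, among 12310 genes with at least 1 FPKM, were Gm17193 (Pearson r = 0.993), Phf21a (0.990), Fuca2 (0.986), Gm28439 (0.984) and Ccl28 (0.969), each over 6 animals. Gm28439 is a nuclear copy of mt-Nd4 and is described below. Phf21a encodes a histone-binding protein of a repressor complex, Fuca2 a secreted fucosidase and Ccl28 a chemokine. Genes with the most opposite pattern were Selenoo (-0.997), a mitochondrial selenoprotein, Cdc42se2 (-0.976), Cntnap4 (-0.974), Add3 (-0.972) and Nrsn1 (-0.965). Selenoo had 2.03, 1.30 and 1.40 FPKM in PND and 1.57, 1.85 and 1.43 FPKM in CON, highest in PND animal 1, where the mean of the 7 genes was lowest. With 6 points and so many genes, such values are a ranking and no test was made.

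The 7 genes together took 10.5%, 13.9% and 12.9% of all FPKM in PND and 12.4%, 11.5% and 13.4% in CON. The means were 12.4 ± 1.74% and 12.4 ± 0.930%, and the difference of 0.0065 percentage points was far inside the spread. As a share of the 13 protein genes of the mitochondrial genome they took 34.6%, 35.8% and 34.4% in PND and 36.4%, 37.2% and 38.9% in CON, so that all PND animals lay below all CON animals, with a difference of -2.62 percentage points in the means. Counted in estimated fragments in place of FPKM the shares were 34.7%, 38.3% and 36.3% in PND and 36.4%, 36.5% and 39.5% in CON, where the groups overlapped and the difference was -1.03 percentage points. The total also holds mt-Atp6, a subunit of ATP synthase. mt-Atp6 had 2021, 12595 and 12017 FPKM in PND and 2539, 1542 and 1965 FPKM in CON (log2 fold change 1.77, SE 0.67, limma unadjusted p = 0.0313, adjusted p = 0.9999). With mt-Atp6 taken out of the total the shares were 35.7%, 41.4% and 39.7% in PND and 37.7%, 38.1% and 39.9% in CON, the groups overlapped and the difference was 0.339 percentage points. PND animal 1, whose mt-Atp6 level lay among those of CON, had a share below all CON animals with and without mt-Atp6. The cause of the gap was not tested. The other 5 protein genes of the mitochondrial genome had log2 fold changes of 0.02 for mt-Co1, -0.01 for mt-Co2, 0.01 for mt-Co3, 0.08 for mt-Cytb and 0.08 for mt-Atp8, none with an unadjusted limma p below 0.05.

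Ratios between the genes within an animal do not depend on a scaling of each library by 1 factor, although a GC correction or quantile normalization can move them. Of the 21 ratios that can be formed between 2 of the 7 genes, 4 (19%) did not overlap between PND and CON. Among the 15 ratios between the other mitochondrial protein genes 1 (6.67%) did not overlap, and among the 42 ratios of a complex I gene to another mitochondrial protein gene 4 (9.52%) did not. Ratios that share a gene are not independent, and these pairs were singled out after the values were seen, so no test was made. The smallest p that an exact permutation test of 3 against 3 can give is 0.1. mt-Nd5 was in 3 of the 4 ratios, mt-Nd1 and mt-Nd6 in 2 each and mt-Nd2 in 1, while mt-Nd3, mt-Nd4 and mt-Nd4l were in 0. These counts hold for the deposited FPKM, and which pairs overlap can differ after a GC correction.

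The widest of these gaps was between the overlapping genes of opposite strands, mt-Nd5 and mt-Nd6, whose shared ends are printed above. mt-Nd5 stood at 1.10, 1.11 and 1.30 times the mt-Nd6 level in PND animals 1, 2 and 3 and at 0.897, 0.956 and 0.952 times in CON animals 1, 2 and 3. In log2 the ratio was 0.22 ± 0.13 in PND and -0.10 ± 0.05 in CON (SD, n = 3 each), a difference of 0.32. The lowest PND and the highest CON animal lay 0.20 apart. The counting error of the log2 ratio in each animal was between 0.0147 and 0.0168, which leaves out the variation between animals and libraries. PND animal 1, the lowest library for the common level, thus lay with the other PND animals in this ratio. With a GC correction the log2 ratio was 0.12, 0.18 and 0.32 in PND and -0.13, -0.10 and -0.04 in CON, a difference of 0.30. Under quantile normalization, with tied values, it was 0.18, 0.25 and 0.25 in PND and -0.18 in each CON animal, a difference of 0.40.

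The other 3 ratios without overlap differed by less in the means. The largest difference in the means of all 21 ratios was -0.40, for mt-Nd3 to mt-Nd5, whose groups overlapped. The log2 ratio of mt-Nd1 to mt-Nd5 was 0.41, 0.38 and 0.47 in PND and 0.58, 0.60 and 0.60 in CON, a difference of -0.17 in the means. For mt-Nd2 to mt-Nd5 it was 0.39, 0.40 and 0.26 in PND and 0.51, 0.41 and 0.62 in CON, where PND animal 2 and CON animal 2 lay 0.013 apart, close to the counting error of 0.00987 to 0.0122. For mt-Nd1 to mt-Nd6 it was 0.55, 0.54 and 0.85 in PND and 0.42, 0.53 and 0.53 in CON, with a gap of 0.0054 between the groups, under the counting error of 0.0153 to 0.0173 in each animal. mt-Nd6 against the geometric mean of the 6 genes of the other strand was at -0.33, -0.31 and -0.58 in PND and -0.11, -0.35 and -0.36 in CON, a difference of -0.13 with overlap.

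**Figure D4:**
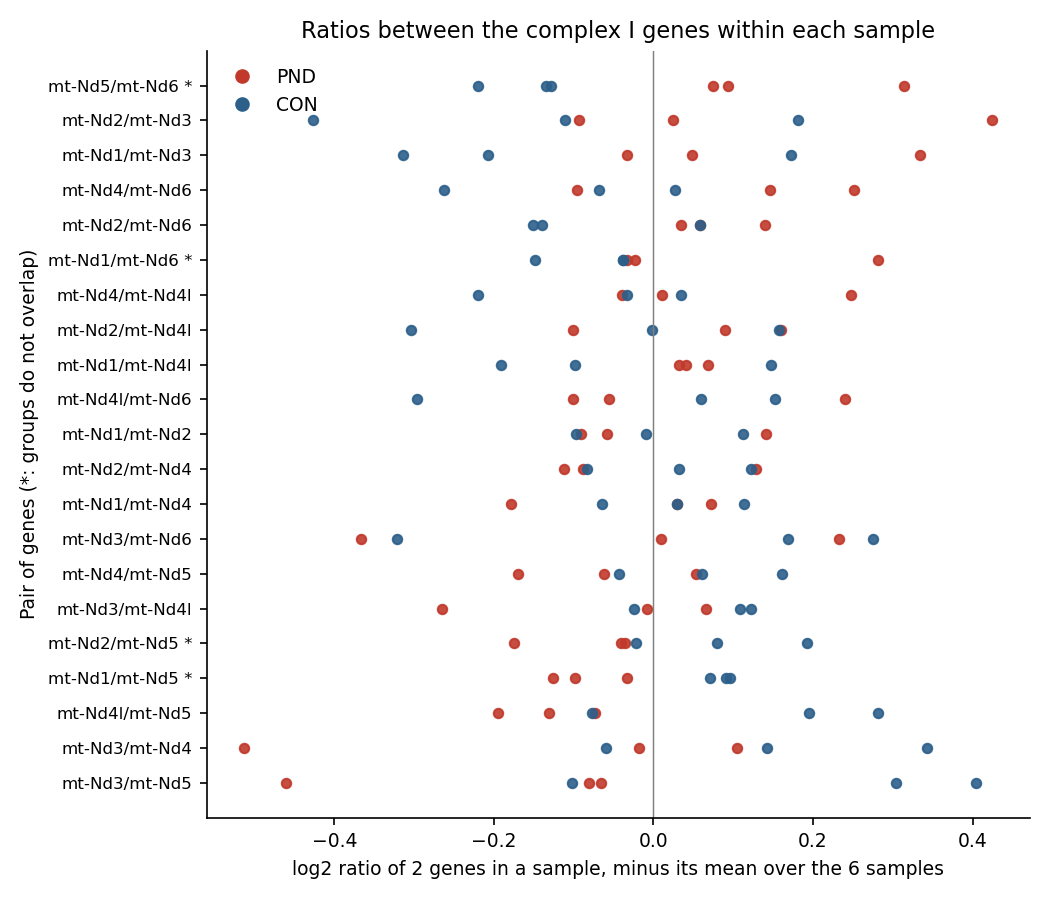
Log2 ratio of each pair of the 7 genes within an animal, minus its mean over the 6 animals, with 1 dot for each animal (PND red, CON blue), sorted by the difference between groups. The 4 pairs with an asterisk do not overlap, and the top pair, mt-Nd5 to mt-Nd6, shows the widest gap (0.20).

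Parts of these genes also lie in the nuclear genome as copies, and fragments from identical stretches could have been given to either place. A block on chromosome 1 holds the copies that matter most. Gm28439 (chr1:24611535-24612410, minus strand, an unprocessed pseudogene) matched the start of mt-Nd4 over 876 of 876 bases, which is 63.6% of mt-Nd4. It was listed at 629.8, 1030.0 and 904 FPKM in PND and 807, 715 and 864 FPKM in CON and took 5.60% to 5.88% of the fragments of both rows together. Gm10222 (chr1:24612407-24612700, minus strand), named after its values were seen, matched mt-Nd4l over 294 of 294 bases, had 711, 1088 and 948 FPKM in PND and 911, 712 and 845 FPKM in CON and took 9.78% to 13.2%. Their log2 fold changes were 0.08 (limma unadjusted p = 0.690) and 0.14 (limma unadjusted p = 0.455).

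Gm28438 (chr1:24612775-24613119, minus strand) matched mt-Nd3 over 344 of 345 bases and took 6.23% to 10.3% of the fragments of both rows, at 40.2 to 57.9 FPKM. The only difference, T3C with positions counted from 1 at the 5′ end of the mt-Nd3 message, is in capitals in both sequences.
mt-Nd3, chrM:9459-9481, plus strand: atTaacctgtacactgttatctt
Gm28438, chr1:24613097-24613119, minus strand: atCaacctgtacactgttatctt
The log2 fold change of Gm28438 was 0.06 (limma unadjusted p = 0.699). Less similar copies of mt-Nd2 and mt-Nd5 among the pseudogenes held few fragments. Gm13339 on chromosome 2, alike to mt-Nd2 at 493 of 510 bases (96.7%), had 14 to 46 fragments. Gm4076 on chromosome 13, alike to mt-Nd5 at 908 of 954 bases (95.2%), had 15 to 37. Cep295, a protein-coding gene of the centriole on chromosome 9, holds distant stretches of mt-Nd1 and mt-Nd2 on its opposite strand at 76.1% and 74.1% identity, and had 526 to 668 fragments over the whole gene. For mt-Nd6 no copy with a value passed the limit of 100 matched bases. When the fragments of the nuclear copies were added to the genes they match, 0 of 7 passed the cut-off.

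The other parts of the enzyme and of its production were set beside the 7 genes from lists of gene names. The 7 nuclear core subunits, which carry the NADH site and the iron-sulfur clusters of the peripheral arm, had a median log2 fold change of 0.01, and 0 of 7 passed the cut-off or had an unadjusted limma p below 0.05. Ndufv2, an iron-sulfur protein of the NADH-binding module, had 35.3, 33.9 and 35.2 FPKM in PND and 31.6, 28.5 and 32.3 FPKM in CON. It was the only 1 of the 7 whose groups did not overlap, higher in PND (3.78% of all genes tested were so), with a log2 fold change of 0.18 (SE 0.10, limma unadjusted p = 0.110, adjusted p = 0.9999). Log2 fold changes were 0.21 for Ndufv1, 0.01 for Ndufs3, -0.03 for Ndufs8, -0.10 for Ndufs1 and -0.13 for Ndufs7.

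Of 29 nuclear accessory subunits tested, which surround the core, 18 had a positive and 11 a negative value, with a median of 0.06, and 0 passed the cut-off. An unadjusted limma p below 0.05 was given to 1 of 29, Ndufb9, with 57.5, 45.7 and 63.6 FPKM in PND and 35.9, 51.8 and 36.1 FPKM in CON. Its groups overlapped, and the log2 fold change was 0.44 (SE 0.19, limma unadjusted p = 0.0496, adjusted p = 0.9999). Ndufb2 had 2.67, 3.11 and 3.05 FPKM in PND and 3.53, 3.81 and 3.69 FPKM in CON, all PND animals below all CON animals (log2 fold change -0.31, limma unadjusted p = 0.0794). Ndufs4, named after its values were seen, was the other accessory gene whose groups did not overlap, in the opposite direction, with 18.64, 19.5 and 19.2 FPKM in PND and 18.5, 15.6 and 18.58 FPKM in CON (log2 fold change 0.13, limma unadjusted p = 0.306). Over all genes tested the groups did not overlap for 7.66%.

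Of 18 assembly factors tested, which build complex I but are not part of it, 11 had a positive and 7 a negative value, with a median of 0.12, and 0 passed the cut-off or had an unadjusted limma p below 0.05. Ndufaf4 came nearest, with 6.96, 8.74 and 6.93 FPKM in PND and 8.38, 1.98 and 2.37 FPKM in CON, where CON animal 1 lay with the PND animals (log2 fold change 1.11, SE 0.49, limma unadjusted p = 0.0575). Ndufaf8 had a log2 fold change of 0.63 (limma unadjusted p = 0.189). Of 28 genes for mitochondrial transcription and RNA handling, 17 had a positive and 11 a negative value, with a median of 0.02, and 0 had an unadjusted p below 0.05. Slirp, which stabilizes mitochondrial messages together with Lrpprc, had 2.36, 3.25 and 2.79 FPKM in PND and 1.75, 0.926 and 2.55 FPKM in CON (log2 fold change 0.75, limma unadjusted p = 0.0689). Fastkd1, a mitochondrial RNA-binding protein named after its values were seen, was the only 1 of the 28 whose groups did not overlap (7.66% of all genes tested), all PND animals below all CON animals, with 1.46, 1.45 and 1.42 FPKM in PND and 1.98, 1.91 and 1.48 FPKM in CON (log2 fold change -0.28, limma unadjusted p = 0.210). Hsd17b10, a subunit of the RNase that frees mitochondrial tRNAs, had a log2 fold change of 0.34 (limma unadjusted p = 0.130). Of 7 regulators of mitochondrial biogenesis, 0 had an unadjusted p below 0.05 and the median was 0.01. Gabpa had a log2 fold change of -0.26 (limma unadjusted p = 0.129) and Esrra of 0.34 (limma unadjusted p = 0.489).

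**Figure D5:**
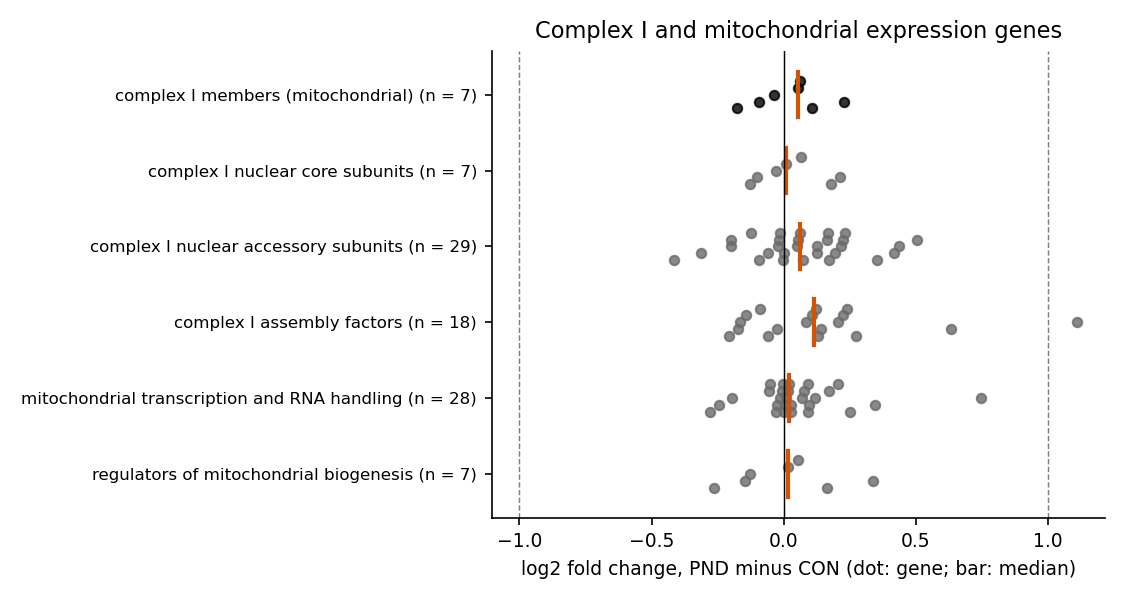
Log2 fold change of PND against CON for each tested gene (dot) of 6 lists, with an orange bar at the median of the list and dashed lines at the study's fold limit. The 7 mitochondrial genes lie between -0.18 and 0.23, and the dot furthest to the right is Ndufaf4 at 1.11. Under quantile normalization mt-Nd1 and mt-Nd2 fall below 0.

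The labelled tissue was checked with markers. All 7 markers of cortical excitatory neurons were expressed, and their summed level was 148 to 182 FPKM in PND and 149.9 to 232 FPKM in CON. Aqp4 of astrocytes (log2 fold change -0.36, unadjusted p = 0.0275, adjusted p = 0.9999 by limma) and P2ry12 of microglia (log2 fold change -0.76, unadjusted p = 0.0077, adjusted p = 0.9999 by limma) were lower in PND at an unadjusted p below 0.05. Within these lists 2 of 4 astrocyte and 2 of 4 microglial markers had a positive log2 fold change that did not pass the test, up to 0.28 for Aldh1l1 and 0.52 for Tmem119, and the median log2 fold change was 0.0013 and 0.01. Summed levels overlapped between the groups for inhibitory neurons (128 to 159 and 94.8 to 158 FPKM), astrocytes (146 to 155 and 148 to 169 FPKM), oligodendrocytes (207 to 269.7 and 233 to 263 FPKM), microglia (14.1 to 17.8 and 17.6 to 23.4 FPKM), endothelium (9.89 to 11.5 and 9.21 to 11.6 FPKM), choroid plexus (1.02 to 1.40 and 0.774 to 1.48 FPKM) and striatal neurons (52.3 to 65.0 and 38.6 to 80.1 FPKM), in PND and CON. Red blood cell markers stood at 0 to 2.76 FPKM in PND and 0 to 0.0769 FPKM in CON. The part of these cell types in the levels of the mitochondrial genes was not tested. The effective depth was 7193226 to 9388019 fragments, and of the 15 pairs of libraries 0 held identical values.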

How the data were processed

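Ribosomal RNA was removed by the authors from total RNA of the prefrontal cortex, and libraries were sequenced on an Illumina instrument. Per the study's methods the reads were filtered with Seqtk, mapped with HISAT2 and counted per gene with StringTie, and the counts were scaled by TMM. The deposited values were the resulting FPKM, in 1 column for each of the 6 animals. The submitters' processing notes also list Bowtie 0.12.2 and the mouse builds mm8 and mm9, with no role given. Which build, annotation and strand setting the counting used was not given in the sources used here, and fragments of identical copies may have been divided in an unknown way. The 2 mitochondrial ribosomal RNAs were not analysed here.

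Groups came from the treatment label and replicate numbers from the sample titles. The comparison of PND with CON used limma 3.58.1 in R 4.3.3 (lmFit, eBayes with an intensity trend, two-sided). It was fitted to log2(FPKM + 0.1), and genes whose mean was under 0.1 FPKM were dropped, which left 18185. Fold changes are on this scale. All of these genes entered the Benjamini-Hochberg adjustment. The fit was tested on simulated data. For depth, FPKM were multiplied by exon length (GENCODE M21), and the value of 1 fragment was read from the steps of low values, then refined on higher values, those of the 7 genes included. Of the low values in genes with 1 transcript, 93.8% to 94.5% lay within 0.05 of a whole number, and all 42 values of the 7 genes lay within 0.00076. These fragments were used for counting error, which does not cover differences between animals, and in limma-voom. Copies were found with BLAST 2.17.0 in the GENCODE M21 transcripts, with at least 100 matched bases. Symbols were matched for 20866 of 21006 identifiers.

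The 7 genes, the other protein genes of the mitochondrial genome and the nuclear core subunits were named whatever their values, except that the single values of a few genes are not reported here. From the other lists the genes past the cut-off were named, or else the 2 with the smallest p. In addition the 5 expressed copies with the longest match and the 5 genes most alike and most opposite to the mean of the 7 were named. The members and lists were chosen with earlier results of these data known. Alternatives covered the pseudocount, the filter on low values, the trend, the scaling, GC content, the replicate block and each sample left out.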

Additional observations from a re-analysis of the deposited data

How the results depend on the processing

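None of the 7 genes passed the cut-off in the 15 alternatives with all samples or the 6 fits with 1 sample left out. Of 147 fold changes of the 7 genes under these alternatives, 131 neither turned direction nor crossed an unadjusted p of 0.05, and 14 turned direction. Part of the 147 could not turn, as the filters, the trend and the replicate block leave a fold change unmoved. The GC correction with the block likewise repeats the fold changes of the GC correction. Under quantile normalization, in which a value follows only from its rank in the library, the log2 fold change was -0.092 for mt-Nd1, -0.12 for mt-Nd2 and -0.34 for mt-Nd6 (limma unadjusted p = 0.0052), and that of mt-Nd4 went to 0, counted among the 131. The mt-Nd6 p rests on tied values, identical in all CON animals. Rescaling to the sum of the 13 mitochondrial protein genes, mt-Atp6 included, moved the median of all genes to -0.13 and gave -0.096 for mt-Nd1, -0.092 for mt-Nd2 and -0.044 for mt-Nd4, all above that median. The share of the 7 genes in mitochondrial FPKM differed by -1.03 percentage points in estimated fragments and by 0.339 without mt-Atp6 in the total, and in both the groups overlapped. For these changes the cause was not tested.

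With 1 sample left out at a time, the log2 fold change ran from -0.026 to 0.22 for mt-Nd1, from -0.075 to 0.20 for mt-Nd2, from -0.29 to -0.088 for mt-Nd3, from -0.050 to 0.32 for mt-Nd4, from -0.12 to 0.12 for mt-Nd4l, from 0.13 to 0.38 for mt-Nd5 and from -0.23 to 0.020 for mt-Nd6. The median of the 7 turned negative under quantile normalization and the rescaling to the 13 genes and ran, with a sample left out, from -0.065 to 0.20. Only mt-Nd5 without PND replicate 1 (0.38, limma unadjusted p = 0.0326) had a p below 0.05 in these 6 fits. mt-Nd4l (0.12) and mt-Nd6 (0.020) turned positive without PND replicate 1, and mt-Nd1, mt-Nd2 and mt-Nd4 turned negative without PND replicate 2 (-0.026, -0.065 and -0.050). mt-Nd1 turned negative without PND replicate 3 (-0.026), mt-Nd1 and mt-Nd2 without CON replicate 2 (-0.025 and -0.075), and mt-Nd4l turned positive without CON replicate 3 (0.025). The difference in the share of all FPKM ran from -0.734 to 0.964 percentage points, that in the share of mitochondrial FPKM from -3.15 to -1.92, and that of mt-Nd6 against the other 6 from -0.18 to -0.045 in log2.

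Over all genes 241 lay past the cut-off (153 up and 88 down in PND). The count was 25 with a pseudocount of 1, 59 with a minimum mean of 1 FPKM and 2 with an adjusted p below 0.05, and from 235 to 388 with a sample left out, the highest without CON replicate 2 (286 up and 102 down). Without PND replicate 3 the split turned to 107 up and 128 down, and without PND replicate 1 it was 126 up and 118 down. The split was 124 higher and 116 lower under quantile normalization and 127 and 148 with the rescaling to the 13 mitochondrial genes. Deviations of same-numbered animals of PND and CON from their group means had r = -0.0475, -0.266 and 0.0111. For unlike numbers r ran from -0.245 to 0.27. Deviations from means of 3 animals cannot show whether the numbers pair the samples. With the replicate block, which cannot move a fold change in this balanced layout, the count was 226, and none of the 7 genes was past the cut-off (for mt-Nd5 0.23, limma unadjusted p = 0.309). The voom test, the rescaling without mt-Atp6, the adding of nuclear copies and the total without mt-Atp6 were chosen after seeing the data. With 3 animals in each group, the spread between libraries and not the counting error limits what can be seen for these genes. With 1 library from each animal, differences between animals and between library preparations cannot be told apart in it.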
